A study of Mus musculus with 6 samples.

Results

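The AP-1 and immediate-early genes examined here were *Fos*, *Fosb*, *Fosl1*, *Fosl2*, *Jun*, *Junb*, *Jund*, *Atf3*, *Egr1* and *Ier3*, grouped by their known function. The choice was made with earlier results of these data known, so counts of these genes and of the lists below are descriptions. They are 10 of the 26579 genes in the count table, and all 10 were among the 15102 genes tested, those that reached 1 CPM (counts scaled to library size) in 3 or more libraries. RNA-Seq had been carried out on whole-skin punch biopsies of the dorsal neck from 3 wild type and 3 YAP2-5SA-∆C mice, female littermates of 33 days of age. The YAP2-5SA-∆C mice carry a mildly active form of YAP, the transcriptional co-activator of the Hippo pathway, expressed in basal keratinocytes, and were sampled when the skin phenotype first became visible. The wild type mice carry no transgene, and each library is a separate mouse. The question was which members of the AP-1 family, and which genes that are induced with them, were expressed at other levels in YAP2-5SA-∆C skin.

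AP-1 is a transcription factor made of pairs of basic leucine zipper proteins. The JUN proteins pair with each other or with FOS proteins, whereas the FOS proteins bind DNA only as partners of another zipper protein. *Fos*, *Fosb*, *Junb*, *Atf3*, *Egr1* and *Ier3* are immediate-early genes, whose transcription starts within minutes of a growth factor, cytokine or stress signal without new protein synthesis, through mitogen-activated protein kinases (MAPK) and factors already bound at their promoters. *Fosl1* and *Fosl2* encode the FRA proteins, which usually accumulate later and for longer. In skin, AP-1 is known for its part in keratinocyte proliferation, differentiation and wound repair, and YAP with its TEAD partners is known to share many enhancers with AP-1.

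The promoters of the AP-1 genes are shown because AP-1 and CREB-type factors bind elements in them through which these genes respond to signals. Promoter windows from RefSeq (GRCm38.p6), searched over the 250 bases before each start site on both strands, matched 8 of the 10 genes. The core of the cyclic AMP response element, TGACG, was present in 4 of these 8 genes, and in 17.8% of all 32851 windows. It began 66 and 129 bases before the start of *Fos*, 60 before *Fosb*, 106 before *Junb* and 7 before *Atf3*, there on the reverse strand. The *Jun* window held TGACATCA, a variant of the TPA response element found in 2.93% of all windows, 45 bases before the start. In the lines that follow, 60 bases around a match are written 5′ to 3′ on the strand of the gene, with the match in capitals, for *Fos* (chr12:85473797-85473856, plus strand), *Fosb* (chr7:19310073-19310132, minus strand), *Junb* (chr8:84978822-84978881, minus strand) and *Jun* (chr4:95052234-95052293, minus strand).
Fos: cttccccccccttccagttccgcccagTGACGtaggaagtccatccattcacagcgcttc
Fosb: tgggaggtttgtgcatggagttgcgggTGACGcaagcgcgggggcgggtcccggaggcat
Junb: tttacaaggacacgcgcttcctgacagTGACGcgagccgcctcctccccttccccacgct
Jun: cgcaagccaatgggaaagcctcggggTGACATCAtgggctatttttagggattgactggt
The canonical TPA response element TGACTCA (4.46% of all windows), the TEAD motif GGAATG (12.6%) and the CArG box (1.47%), the site of serum response factor, matched in 0 of the 8 genes. No matches overlapped. A match is a description of the letters and not of binding, and a window without a match says only that these letters are not in it. No sequence is given for *Fosl1* and *Egr1*.

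Total counts ranged from 11225705 to 19505036 per library, lowest in wild type replicate 3. *Yap1*, the mouse gene of the transgenic protein, differed by 0.06 on the log2 scale (FDR = 0.635), and it is not known whether transgene reads were counted on it. Of the 15102 tested genes, the quasi-likelihood test of edgeR called 1.91% at an FDR below 0.05, made up of 1.44% that were higher and 0.464% that were lower in the transgenic libraries. An unadjusted p below 0.05 in this test was found for 26.3% of tested genes, and for 13.3% in the higher direction. The likelihood-ratio test of edgeR called 10.4% and DESeq2 10.5%. The groups did not overlap, so that every YAP2-5SA-∆C library was above every wild type library, in 15.5% of tested genes, and the reverse held in 18.2%. YAP2-5SA-∆C replicate 2 stood apart in hair follicle markers, given with the other markers at the end, and without it the quasi-likelihood test called 5.46% of tested genes.

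Of the 10 genes, 1 was called as higher (*Fosb*) and 0 as lower in the quasi-likelihood test, against 1.91% of all tested genes in either direction and 1.44% as higher. *Fos* and *Fosl1* had an unadjusted p below 0.05 but did not pass the FDR threshold, and by likelihood ratio 3 of the 10 genes, *Fos*, *Fosb* and *Fosl1*, were called, against 10.4% of tested genes. The groups did not overlap for 2 of the 10, *Fosb* and *Fosl1*, both higher, against 15.5% of tested genes, and for 0 of the 10 in the lower direction. The median log2 fold change of the 10 genes was 0.15, with 6 above 0 and 4 below, and that of all tested genes was -0.01. These genes were tested in tissue, where fewer cells of a type and less RNA per cell cannot be told apart.

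**Figure D1:**
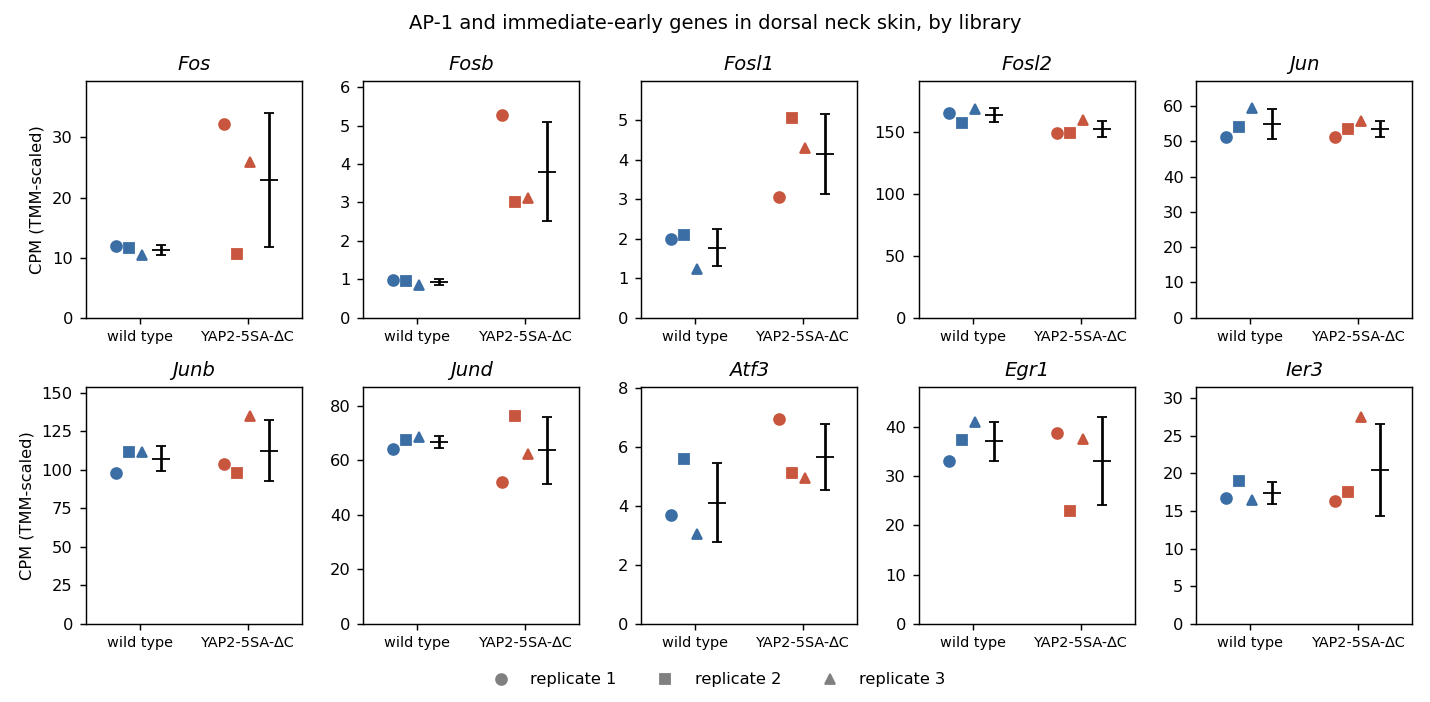
CPM after TMM scaling (y axis, from 0) of each of the 10 genes in every library, with wild type in blue and YAP2-5SA-∆C in red, the marker shape giving the replicate number and the black bar the mean and SD of 3 mice. *Fosb* lies between 0.856 and 0.989 CPM in wild type and between 3.00 and 5.28 CPM in YAP2-5SA-∆C skin, and YAP2-5SA-∆C replicate 2 (square) lies with the wild type libraries in the *Fos* panel.

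Of the 4 FOS genes 1, *Fosb*, was called. *Fosb* (ENSMUSG00000003545, chr7:19302696-19310051 on GRCm38, minus strand) encodes a FOS protein of low basal expression. It had 0.989, 0.942 and 0.856 CPM in wild type replicates 1 to 3 and 5.28, 3.00 and 3.12 CPM in YAP2-5SA-∆C replicates 1 to 3. Every YAP2-5SA-∆C library was above every wild type library, with replicate 1 highest. The mean rose from 0.929 ± 0.0675 to 3.80 ± 1.29 CPM (SD, n = 3 each). This 4.04-fold difference, 2.02 on the log2 scale (standard error 0.28), had an FDR of 0.0377. These levels rest on 18, 18 and 9 counts in wild type and 95, 51 and 50 counts in YAP2-5SA-∆C libraries, and 9 counts have an exact 95% Poisson interval of 4.12 to 17.1, which covers counting error only.

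*Fosb* passed the filter on low values through the YAP2-5SA-∆C libraries, since only 1 of the wild type libraries reached 1 CPM before scaling. The call was also made by voom (FDR = 0.0482), by DESeq2 (FDR = 3.99e-05), by the likelihood-ratio test (FDR = 4.03e-09) and without the filter (FDR = 0.0236). In fits that each omitted 1 library, the log2 fold change of *Fosb* ranged from 1.72 to 2.18, and the gene was called in 2 of 6 fits, those that omitted YAP2-5SA-∆C replicate 1 or 2. Omitting wild type replicate 1, 2 or 3 gave an FDR of 0.0640, 0.178 and 0.135, and omitting YAP2-5SA-∆C replicate 3 gave 0.0906. The counts are per gene, so the full-length transcript and the shorter ΔFosB transcript were not separated.

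*Fos* (ENSMUSG00000021250, chr12:85473890-85477273, plus strand) is the founding member of the family and a standard marker of recent cell stimulation. Its level was 11.9, 11.7 and 10.4 CPM in wild type replicates 1 to 3, and 32.2, 10.6 and 25.9 CPM in YAP2-5SA-∆C replicates 1 to 3. YAP2-5SA-∆C replicates 1 and 3 were far above all wild type libraries, whereas replicate 2 was within the wild type range. The highest YAP2-5SA-∆C library was 3.02 times the lowest, compared with 1.15 times in wild type skin. The difference of 1.02 on the log2 scale (standard error 0.36) gave an FDR of 0.136 by quasi-likelihood, 0.252 by voom, 0.0133 by likelihood ratio and 0.0181 by DESeq2. Without YAP2-5SA-∆C replicate 2 the log2 fold change of *Fos* was 1.37 (FDR = 0.00824), and without replicate 1 it was 0.71 (FDR = 0.265). Omitting any of the other 4 libraries gave an FDR of *Fos* between 0.203 and 0.304.

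*Fosl1* (ENSMUSG00000024912, chr19:5447547-5455946, plus strand) encodes FRA1, the FOS protein most often linked to epithelial migration and invasion. It had 1.98, 2.09 and 1.24 CPM in the wild type libraries and 3.06, 5.06 and 4.31 CPM in the YAP2-5SA-∆C libraries. The groups did not overlap, and here YAP2-5SA-∆C replicate 2 was the highest and replicate 1 the lowest of its group, the opposite order to *Fos* and *Fosb*. The log2 fold change of 1.19 (standard error 0.26), or 2.28-fold, missed the threshold by quasi-likelihood (FDR = 0.0612) and in voom (FDR = 0.0712), and passed it in the likelihood-ratio test (FDR = 0.000254) and in DESeq2 (FDR = 0.00880). The span of *Fosl1* overlaps that of *Ccdc85b* on the other strand, which had 4.19 to 6.10 CPM in wild type and 5.17 to 6.68 CPM in YAP2-5SA-∆C skin (FDR = 0.573), so reads of the overlap could not be assigned without the strand setting.

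*Fosl2* (ENSMUSG00000029135, chr5:32135801-32157842, plus strand) encodes FRA2, a FOS protein of differentiating keratinocytes. Its levels were 165, 157 and 168 CPM in wild type and 149, 149 and 159 CPM in YAP2-5SA-∆C skin. The ranges overlapped only through YAP2-5SA-∆C replicate 3, and the log2 fold change was -0.10 (standard error 0.06, FDR = 0.305).

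The JUN genes, which encode the obligate partners of the FOS proteins, had log2 fold changes close to 0. *Jun* (ENSMUSG00000052684, chr4:95049034-95052222, minus strand) had 51.3, 54.0 and 59.5 CPM in wild type and 51.3, 53.5 and 55.7 CPM in YAP2-5SA-∆C skin, and the range of the YAP2-5SA-∆C libraries lay almost wholly within that of wild type. The difference was -0.04 on the log2 scale (standard error 0.07, FDR = 0.780). The antisense gene *Junos*, which overlaps *Jun*, had 2.93 to 4.47 CPM in wild type and 2.43 to 2.67 CPM in YAP2-5SA-∆C libraries (FDR = 0.204).

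*Junb* (ENSMUSG00000052837, chr8:84974484-84978718, minus strand) encodes a JUN protein that restrains proliferation and cytokine expression in epidermis. It had 97.7, 112 and 112 CPM in wild type and 104, 98.1 and 135 CPM in YAP2-5SA-∆C skin. Only YAP2-5SA-∆C replicate 3 was above the wild type range, and the log2 fold change was 0.07 (standard error 0.13, FDR = 0.759). Its span overlaps *Prdx2* on the other strand, which was at a log2 fold change of -0.36 (FDR = 0.0600).

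*Jund* (ENSMUSG00000071076, chr8:70698949-70700616, plus strand) encodes the JUN protein that is expressed most steadily in resting cells. The wild type libraries had 64.2, 67.2 and 68.6 CPM and the YAP2-5SA-∆C libraries 52.0, 76.2 and 62.3 CPM. The YAP2-5SA-∆C libraries lay on both sides of the wild type range, with replicate 1 lowest and replicate 2 highest, and the log2 fold change was -0.07 (standard error 0.13, FDR = 0.767).

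*Atf3* (ENSMUSG00000026628, chr1:191170296-191218039, minus strand) encodes a stress-induced zipper protein that often acts as a repressor. Its levels were 3.68, 5.60 and 3.04 CPM in wild type and 6.95, 5.12 and 4.93 CPM in YAP2-5SA-∆C skin. Wild type replicate 2 lay inside the YAP2-5SA-∆C range, and the log2 fold change of 0.45 (standard error 0.25) had an FDR of 0.300. Omitting wild type replicate 2 gave 0.74, omitting wild type replicate 3 gave 0.30 and omitting transgenic replicate 1 gave 0.29, with an FDR from 0.206 to 0.548 over the fits that each omitted 1 library.

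*Egr1* (ENSMUSG00000038418, chr18:34859823-34864984, plus strand) encodes a zinc finger factor that is induced by many of the same signals as *Fos*. It had 33.04, 37.3 and 40.9 CPM in wild type and 38.8, 22.8 and 37.6 CPM in YAP2-5SA-∆C skin. YAP2-5SA-∆C replicate 2 was lowest of all 6 libraries, as it was lowest of its group for *Fos*, and the other two were within the wild type range. The log2 fold change of -0.16 (standard error 0.20) had an FDR of 0.638.

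*Ier3* (ENSMUSG00000003541, chr17:35821684-35822923, plus strand) encodes a regulator of survival and of ERK signalling. It had 16.7, 19.0 and 16.5 CPM in wild type and 16.4, 17.5 and 27.5 CPM in YAP2-5SA-∆C skin, with only YAP2-5SA-∆C replicate 3 above the wild type range. The log2 fold change of 0.23 (standard error 0.20) had an FDR of 0.499.

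**Figure D2:**
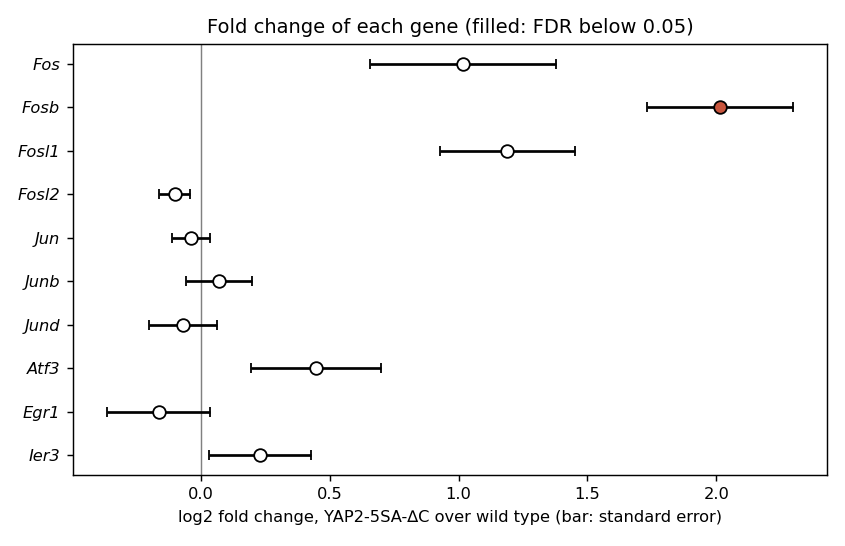
Log2 fold change (x axis) of each of the 10 genes in YAP2-5SA-∆C over wild type skin, from the fit to 3 mice per genotype, with bars for the standard error and a filled point for an FDR below 0.05. Only *Fosb*, at 2.02, is filled, *Fos* and *Fosl1* lie at 1.02 and 1.19, and *Fosl2*, *Jun*, *Junb* and *Jund* lie between -0.10 and 0.07.

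The YAP2-5SA-∆C libraries did not rank alike across the 10 genes. Replicate 1 was the highest of its group for 4 genes (*Fos*, *Fosb*, *Atf3* and *Egr1*) and the lowest for 5 (*Fosl1*, *Fosl2*, *Jun*, *Jund* and *Ier3*). Replicate 2 was the lowest for 4 genes (*Fos*, *Fosb*, *Junb* and *Egr1*) and the highest for 2 (*Fosl1* and *Jund*). Replicate 3 was the highest for 4 genes and the lowest for 1.

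To compare the genes with each other, CPM were divided by the length of the annotated exons in kilobases. On this scale of CPM per kb, *Junb* (46.5 ± 3.52 CPM per kb, SD, n = 3) was the highest in wild type skin, followed by *Jund* (39.96 ± 1.36), and their ranges did not overlap. *Jun* (17.2 ± 1.30), *Fosl2* (16.9 ± 0.596) and *Ier3* (15.4 ± 1.26) came next, each overlapping its neighbour. *Egr1* followed at 8.27 ± 0.879 CPM per kb and *Fos* at 4.81 ± 0.347 CPM per kb, with no overlap between them.

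The lowest levels per length in wild type skin were those of *Atf3* (1.91 ± 0.617 CPM per kb), *Fosl1* (0.870 ± 0.229) and *Fosb* (0.149 ± 0.0108), whose ranges were separate. In YAP2-5SA-∆C skin *Junb* (48.8 ± 8.61 CPM per kb) and *Jund* (38.1 ± 7.28) kept the first places but overlapped. *Fos*, at 9.74 ± 4.71 CPM per kb, took place 6 in place of *Egr1*, and their ranges overlapped. *Fosb*, at 0.609 ± 0.206 CPM per kb, was the lowest of the 10 genes in both genotypes, so the gene with the largest fold change was also the gene with the lowest level per length. These levels use all annotated exons, and a gene whose skin transcript is shorter would be understated.

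*Fosl2* had the largest share of FOS family transcripts in each of the 6 libraries. Its share of the summed FOS family level per kb was 73.4%, 72.5% and 77.1% in wild type replicates 1 to 3 and 48.9%, 67.2% and 54.7% in YAP2-5SA-∆C replicates 1 to 3. All YAP2-5SA-∆C libraries were below all wild type libraries, by 17.4 percentage points in the mean, from 74.3 ± 2.44% to 56.9 ± 9.36% (SD, n = 3 each). The two-sided exact permutation test gave p = 0.1, the lowest value possible with these group sizes. As shares within a library add to the whole and do not depend on its scaling, the other members took up the difference. The shares per length depend on the exon lengths, and with CPM not divided by length the share of *Fosl2* differed by -8.74 percentage points.

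The share of *Fos* was 21.7%, 22.2% and 19.6% in wild type and 43.6%, 19.8% and 36.6% in YAP2-5SA-∆C libraries, so replicate 2 was again within the wild type range. The mean share of *Fos* was 12.2 percentage points higher (two-sided exact permutation test, p = 0.3), which became 7.04 without YAP2-5SA-∆C replicate 1, 18.95 without replicate 2 and 5.90 with no division by length. *Fosl1* made up 3.83 ± 1.00% and 7.58 ± 3.08%, and *Fosb* 0.655 ± 0.0404% and 2.15 ± 0.519%, of the family in wild type and YAP2-5SA-∆C libraries (SD, n = 3 each, two-sided exact permutation test, p = 0.1 for each). For both genes every YAP2-5SA-∆C library was above every wild type library. The difference of 3.74 percentage points for *Fosl1* became 2.09 without YAP2-5SA-∆C replicate 2 and 1.29 with no division by length.

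The summed FOS family level was 23.2, 22.4 and 22.5 CPM per kb in wild type and 31.4, 22.8 and 30.1 CPM per kb in YAP2-5SA-∆C libraries, with replicate 2 close to wild type. The summed JUN family level was 103.7 ± 5.93 CPM per kb in wild type libraries and 103.7 ± 10.6 CPM per kb in YAP2-5SA-∆C libraries (SD, n = 3 each). Within it, *Junb* made up 44.8% and 47.0%, *Jund* 38.6% and 36.7%, and *Jun* 16.6% and 16.2% in wild type and YAP2-5SA-∆C skin (two-sided exact permutation test, p = 0.6, 0.6 and 0.7). The log2 ratio of the FOS to the JUN family was -2.19 ± 0.11 for wild type and -1.89 ± 0.32 for YAP2-5SA-∆C libraries, a difference of 0.30 (SD, n = 3 each, two-sided exact permutation test, p = 0.2). This difference was 0.13 without YAP2-5SA-∆C replicate 1, 0.45 without replicate 2 and 0.04 with no division by length. On the scale per length FOS family transcripts were fewer than JUN family transcripts in both genotypes.

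**Figure D3:**
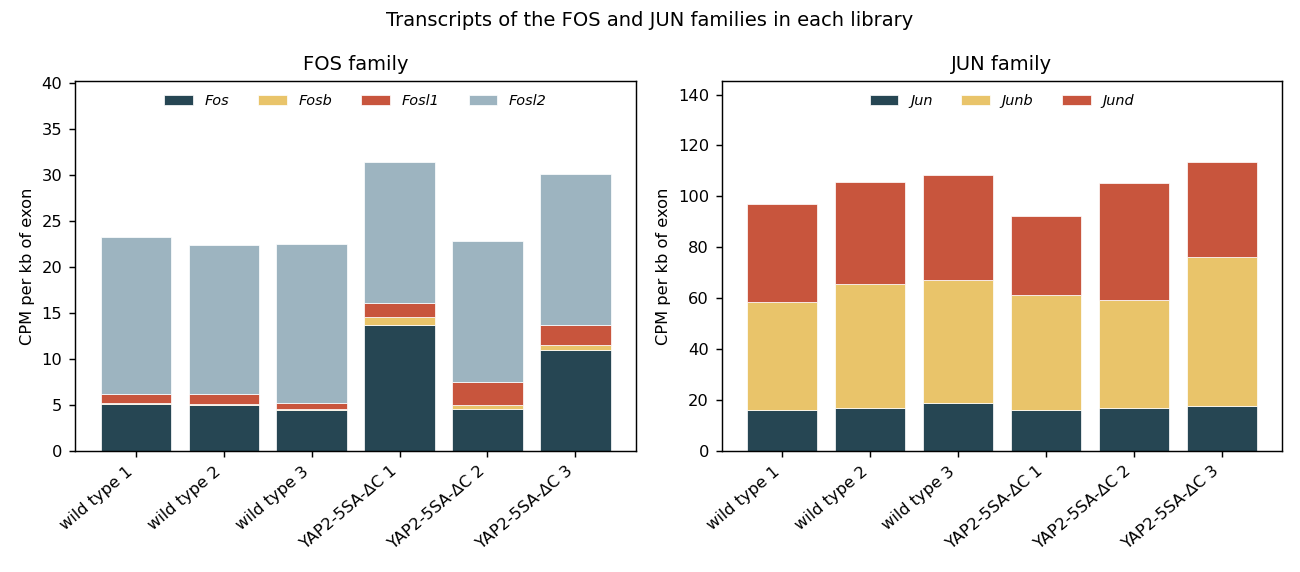
CPM per kb of exon (y axis, from 0) of the FOS family (left) and JUN family (right) in each library, stacked by gene. In the FOS family *Fosl2* fills 72.5% to 77.1% of the wild type bars and 48.9% to 67.2% of the YAP2-5SA-∆C bars, where the *Fos* segment is larger in replicates 1 and 3, and in the JUN family the mean shares of the genotypes differ by less than the SD of the YAP2-5SA-∆C libraries.

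Genes with the pattern most like that of *Fosb* over the 6 libraries, by the root mean square difference of log2 CPM after subtracting each gene's mean, were *Serpinb6c* (0.257), *Ptgs2* (0.289), *Il33* (0.291), *Gsta4* (0.308) and *Il18rap* (0.340). The measure includes the difference between genotypes that these genes share.

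The other genes of the pathway were counted from lists of function. Of 33 listed AP-1 partners and related basic leucine zipper factors, 28 were tested. The quasi-likelihood test called 0 of them, against 1.91% of all tested genes. Of the 28, 7 had an unadjusted p below 0.05, against 26.3% of all tested genes, and the median log2 fold change was -0.00. In other tests of the same list, the likelihood-ratio test called 1 and DESeq2 called 3, against 10.4% and 10.5% of all tested genes. The lowest p-values belonged to *Bach1*, a repressor of oxidative stress genes (log2 fold change 0.33, FDR = 0.0555), *Nfe2l3* (-0.64, FDR = 0.0622), the unfolded protein sensor *Atf6* (-0.19, FDR = 0.0783) and *Cebpa* (0.42, FDR = 0.0897). Without YAP2-5SA-∆C replicate 2, *Nfe2l3* (FDR = 0.0317) and *Cebpa* (FDR = 0.0457) were called, in a fit that called 5.46% of all tested genes. Each was called in only this 1 of the 6 fits that omitted a library.

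Of 42 other immediate-early genes, 41 were tested, and 2 were called as higher and 1 as lower, against 1.44% and 0.464% of all tested genes. An unadjusted p below 0.05 was found for 20 of the 41, 12 of them higher, against 26.3% of all tested genes, and the median log2 fold change was -0.01. *Ptgs2*, which encodes the inducible cyclooxygenase, had 3.63, 2.67 and 2.19 CPM in wild type and 16.4, 7.12 and 13.0 CPM in YAP2-5SA-∆C skin, and rose by 2.09 on the log2 scale (standard error 0.33, FDR = 0.0419). *Dusp1*, the phosphatase that switches off p38 and JNK, had 23.1, 24.5 and 24.4 CPM in wild type and 38.1, 33.3 and 45.995 CPM in YAP2-5SA-∆C skin, and rose by 0.70 (standard error 0.12, FDR = 0.0437). *Ctgf*, a matricellular protein gene and widely used YAP target, had 24.5, 24.6 and 26.4 CPM in wild type and 15.0, 12.2 and 15.3 CPM in YAP2-5SA-∆C skin, with a log2 fold change of -0.82 (standard error 0.10, FDR = 0.0327). By voom *Ptgs2* (FDR = 0.0618) and *Dusp1* (FDR = 0.0522) were not called, and *Ctgf* was (FDR = 0.0362). Each of the 3 was called in 1 of the 6 fits that omitted a library. The groups of these 3 genes did not overlap, as for 13 in the higher and 8 in the lower direction of the 41, against 15.5% and 18.2% of all tested genes. *Nfkbiz*, next by p-value, was at 0.43 (FDR = 0.0530). Of the 6 fits that omitted a library, *Nfkbiz* was called in 1, that without YAP2-5SA-∆C replicate 2 (FDR = 0.0424). Thus immediate-early genes were called in both directions by quasi-likelihood, and *Fos*, *Egr1*, *Ier3*, *Junb* and *Atf3* were not among them.

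Among the kinases and SRF-TCF factors upstream of AP-1, 36 of 37 listed genes were tested. Called as higher were 0 and as lower 1, against 1.44% and 0.464% of all tested genes. Of the 36, 9 had an unadjusted p below 0.05, against 26.3% of all tested genes, and the median log2 fold change was -0.03. The called gene, *Map3k5*, encodes ASK1, a kinase of the JNK and p38 cascades, and had 58.1, 66.3 and 64.8 CPM in wild type and 48.8, 44.2 and 46.6 CPM in YAP2-5SA-∆C skin. Its log2 fold change was -0.44 (standard error 0.07, FDR = 0.0437). The next genes by p-value were *Braf* (-0.65) and *Elk3* (0.46), both with an FDR of 0.0588, and *Mapk3*, which encodes ERK1 (0.32, FDR = 0.0619). Of the 6 fits that omitted a library, *Braf* was called in 1, that without YAP2-5SA-∆C replicate 2 (FDR = 0.0193). Of the MAPK feedback inhibitors, 17 of 18 listed genes were tested and 1, *Dusp1*, was called as higher, against 1.44% of all tested genes. An unadjusted p below 0.05 was found for 8 of the 17, 1 of them higher, against 26.3% of all tested genes. The groups did not overlap for 1 in the higher and 6 in the lower direction, against 15.5% and 18.2%, and the median log2 fold change was -0.10. The next by p-value were *Dusp8* (-0.68, FDR = 0.0748), *Dusp10* (-0.80, FDR = 0.0827) and *Dusp2* (-1.12, FDR = 0.125).

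Genes that textbooks give as AP-1 targets in skin had a median log2 fold change of 0.72. Of 37 listed genes, 30 were tested, 6 were called as higher and 0 as lower, against 1.44% and 0.464% of all tested genes. An unadjusted p below 0.05 was found for 19, against 26.3% of all tested genes, and 15 of them were higher. The groups did not overlap for 16 in the higher and for 3 in the lower direction, against 15.5% and 18.2% of all tested genes. *Sprr1b*, which encodes a cornified envelope protein, had 20.2, 32.4 and 30.9 CPM in wild type and 94.1, 104 and 114 CPM in YAP2-5SA-∆C skin, and rose by 1.90 on the log2 scale (standard error 0.18, FDR = 0.0194). *Mmp13*, an interstitial collagenase, had 0.495, 0.628 and 0.856 CPM in wild type and 5.67, 2.47 and 7.99 CPM in YAP2-5SA-∆C skin, and rose by 3.06 (standard error 0.48, FDR = 0.0414). Like *Fosb*, *Mmp13* passed the filter through the YAP2-5SA-∆C libraries, with 0 wild type libraries at 1 CPM. Its FDR was 0.0261 without the filter and 0.0660 in voom, and it was called in 0 of the 3 fits that omitted a library and still tested it (lowest FDR 0.0744).

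The stress keratins *Krt6b* and *Krt16* rose by 2.85 (FDR = 0.0437) and 2.24 (FDR = 0.0300), the gelatinase gene *Mmp9* by 1.31 (FDR = 0.0414), and the metalloproteinase inhibitor gene *Timp1* by 1.38 (FDR = 0.0414). *Krt6b* has near-identical paralogs, and reads that map to more than a single place were not counted, so its level is uncertain. A further stress keratin, *Krt17*, lay lower in every YAP2-5SA-∆C library than in every wild type library, at 962, 1213 and 1030.05 CPM in wild type and 730.2, 475 and 870.2 CPM in YAP2-5SA-∆C skin (log2 fold change -0.63, FDR = 0.128). Among the targets that were not called, the differentiation gene *Ivl* was at 0.08 (FDR = 0.732) and the cell cycle gene *Ccnd1* at -0.38 (FDR = 0.207), both named after their values were seen. YAP2-5SA-∆C replicate 2 was the lowest of its group for 5 of the 6 called targets and for *Ptgs2*, *Dusp1* and *Fosb*. The same held for 27.5% of the 218 genes called as higher. This library was also the lowest for *Fos*, which was not called, as for 37.1% of all tested genes, and the highest for *Fosl1*. Without this library 10 targets were called of the 29 then tested, *Mmp13* being no longer tested, against 5.46% of all genes in that fit. The count was 0 when wild type replicates 2 or 3 or the transgenic replicate 3 was omitted, 2 when wild type replicate 1 was, and 1 when transgenic replicate 1 was, in fits that called 0, 142 and 86 of all genes.

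**Figure D4:**
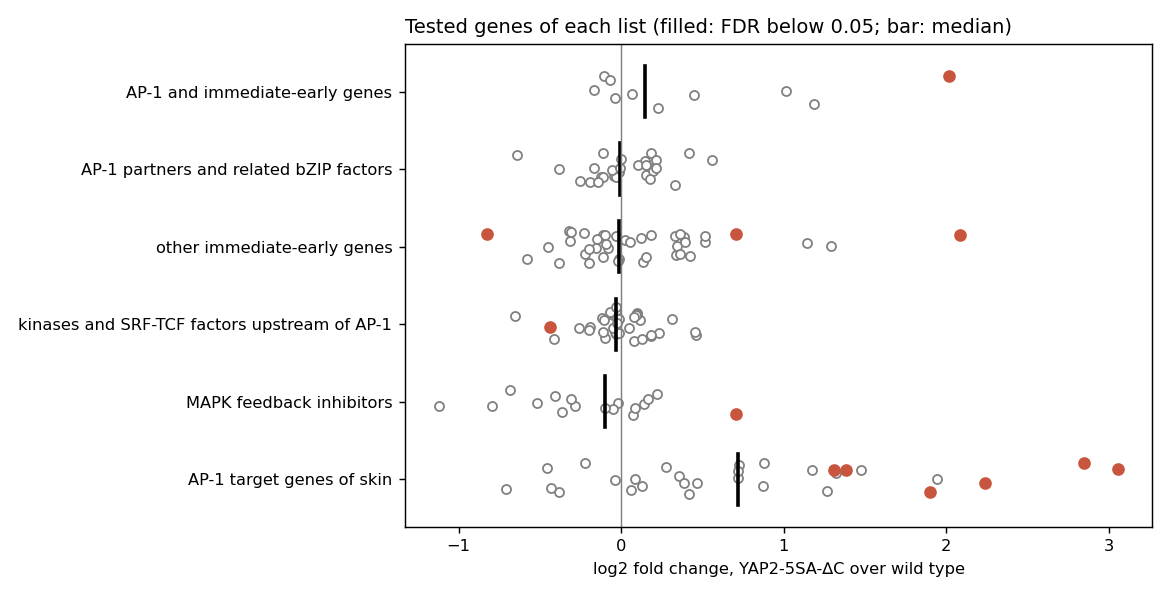
Log2 fold change (x axis) of every tested gene of the 10 AP-1 and immediate-early genes and of the 5 other lists, with called genes filled in red and the median of each list as a black bar. The medians are 0.15 for the 10 genes, between -0.10 and -0.00 for partners, other immediate-early genes, kinases and feedback inhibitors, and 0.72 for AP-1 targets of skin.

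**Figure D5:**
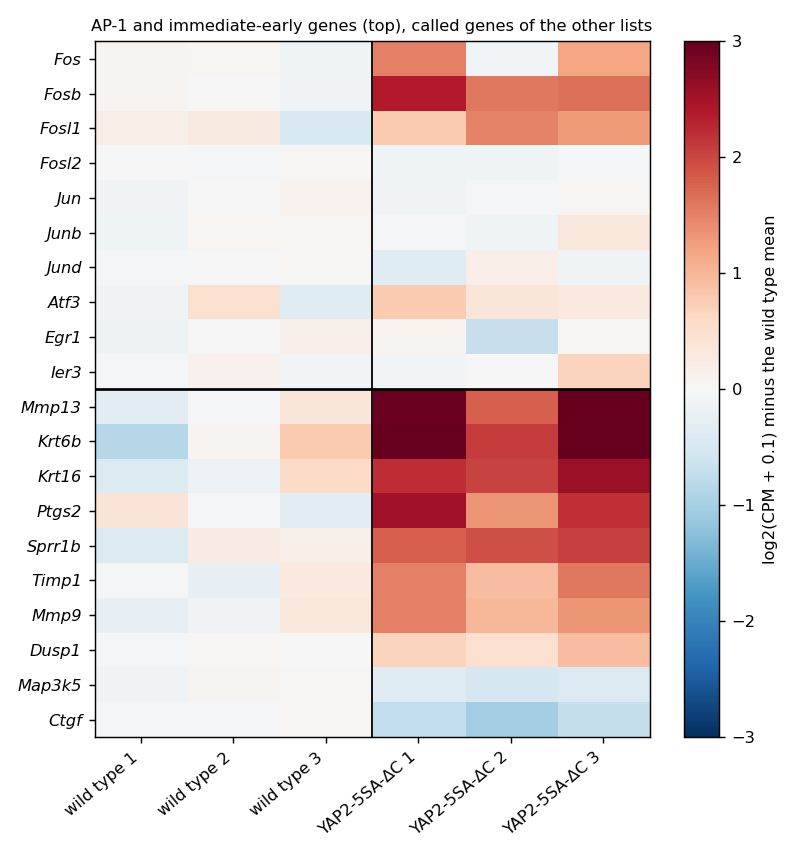
Colour shows log2(CPM + 0.1) of each library (columns) minus the mean of the 3 wild type libraries, for the 10 genes (upper rows) and the called genes of the other lists (lower rows), with the scale ending at 3 in either direction. *Fosb* is red in all YAP2-5SA-∆C libraries, *Fos* in replicates 1 and 3 only, and *Fosl1* most in replicate 2.

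For the marker counts that follow, the shares over all tested genes were 1.44% called as higher, 0.464% called as lower and 26.3% at an unadjusted p below 0.05. The summed level of the 7 basal keratinocyte markers was 3593 to 4358 CPM in wild type and 5903 to 7540 CPM in YAP2-5SA-∆C libraries, highest in replicate 2, and 1 of the 7, *Krt14*, was called as higher. The 9 macrophage markers summed to 492 to 606 CPM in wild type and 728 to 797 CPM in YAP2-5SA-∆C skin, with *Mrc1* and *Csf1r* called. The neutrophil markers summed to 9.07 to 13.3 CPM and 21.0 to 30.3 CPM, with *Cxcr2* called of 2 tested, and *Ly6g* was not analysed here. The 4 stress keratinocyte markers summed to 1194 to 1585 CPM in wild type and 1222 to 2363 CPM in YAP2-5SA-∆C skin, lowest in replicate 2 of that group, and of the 4 *Krt17* lay lower and the others higher.

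Hair shaft and inner root sheath markers summed to 12207 to 14930 CPM in wild type and 1381 to 8298 CPM in YAP2-5SA-∆C skin, lowest in replicate 2, and 0 of the 9 tested were called, with 8 at an unadjusted p below 0.05. Without YAP2-5SA-∆C replicate 2, 8 of the 9 were called as lower, in a fit that called 5.46% of all tested genes. The summed melanocyte markers were 408 to 478 CPM in wild type and 151 to 261 CPM in YAP2-5SA-∆C skin, with 2 of 5 called as lower, and 5 of 5 without YAP2-5SA-∆C replicate 2. Summed levels that did not overlap were also those of suprabasal keratinocyte markers (5703 to 6756 CPM for wild type libraries, 7190 to 12277 CPM for transgenic libraries, 0 of 7 called with 3 at an unadjusted p below 0.05), sebaceous gland markers (193 to 267 and 287 to 344 CPM, 0 of 5 called with 3 at an unadjusted p below 0.05), endothelial markers (96.1 to 114.7 and 115.1 to 138 CPM, 0 of 5 called with 1 at an unadjusted p below 0.05, a share under that of all tested genes) and mast cell markers (154 to 173 and 196 to 247 CPM). Of the 5 mast cell markers *Cma1* was called as higher. The 5 skeletal muscle markers varied from 987 to 5871 CPM over the 6 libraries, and the groups overlapped for these and for the fibroblast, T cell, adipocyte and stress keratinocyte sums. The part of these values in the levels of *Fos*, *Fosb*, *Fosl1* and the AP-1 targets was not tested.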

How the data were processed

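Values were computed from a deposited matrix of raw counts for Ensembl genes in 6 libraries. To make it, the authors aligned read pairs to GRCm38 (TopHat2, Bowtie2) and assigned uniquely mapped reads to genes (HTSeq-count), and replicates were not pooled. The annotation release and the strand setting are not given in the sources used here, so overlapping genes are uncertain. The labels name a kit for total RNA, whereas the paper describes mRNA libraries.

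The filter kept 15102 genes that reached 1 CPM in 3 or more libraries, and TMM factors were applied. R 4.3.3 was used, with edgeR 4.0.16 (a genotype term alone, by quasi-likelihood and by likelihood ratio with tagwise dispersion), limma 3.58.1 (voom) and DESeq2 1.42.0. Adjustment was by Benjamini-Hochberg over all tested genes (FDR, threshold 0.05), and an FDR with no tool named is that of the quasi-likelihood test. The quasi-likelihood test was also run on simulated counts, whose outcome is not given here and is not used as support. The standard error is the log2 fold change divided by the square root of F. Shares of a family were compared by two-sided exact permutation tests.

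Gene names, positions and exon lengths came from GENCODE M21 on GRCm38, and promoter windows from RefSeq. Called genes and the 4 lowest p-values of each list are named, with the 5 genes most like *Fosb* and *Yap1*, with *Krt14*, *Mrc1*, *Csf1r*, *Cxcr2* and *Cma1* as called markers, and with *Krt17*, chosen after its values were seen. The 10 genes and the lists were chosen with earlier results of these data known, so their counts are descriptions. In the kinase list *Mkl1* and *Mkl2*, each listed under an old and a new name, were counted once. Alternatives were other tests, RLE and upper-quartile scaling, other filters, a block for the replicate number and omission of each library. A trended dispersion was added after seeing the data.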

Additional observations from a re-analysis of the deposited data

How the results depend on the processing

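The number of the 10 genes called, 1 in the quasi-likelihood test, was 3 with the likelihood-ratio test, 3 with DESeq2, 0 with at least 10 counts in every sample, where *Fosb* was no longer tested, and 0 to 2 when each library was left out. Over all tested genes the 288 calls became 1568 with the likelihood-ratio test, 1583 with DESeq2, 497 without the filter on low counts, and 0 to 816 when each library was left out. Omitting wild type replicate 2, wild type replicate 3 and transgenic replicate 3 gave 0 calls each, with 2725, 2844 and 3692 genes at an unadjusted p under 0.05. Of all quasi-likelihood calls 75.7% were higher, compared with 53.1% in the likelihood-ratio test and 60.5% in DESeq2. With the likelihood-ratio test and DESeq2, the calls were 1 and 3 for partners, 8 and 9 for other immediate-early genes, 3 and 5 for kinases, 4 and 4 for feedback inhibitors, and 14 and 16 for AP-1 targets. Without the filter, which tests more genes, 11 AP-1 targets were called. With voom 1 other immediate-early gene and 0 feedback inhibitors were called, and upper-quartile scaling called 1 partner. Leaving out each library gave 0 to 2 partners, 0 to 4 other immediate-early genes, 0 to 2 kinases, 0 to 1 feedback inhibitors and 0 to 10 AP-1 targets. The causes of these differences were not tested.

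Of the log2 fold changes of single genes under the alternatives, 133 kept their direction and side of the threshold, 5 newly passed it, 5 no longer passed it and 6 changed sign. All 5 that no longer passed were of *Fosb*, which kept its call in 9 alternatives. Those that newly passed were 3 of *Fos* and 2 of *Fosl1*. The sign changes were *Jun* at 0.032 without wild type replicate 3 and 0.012 without YAP2-5SA-∆C replicate 1, *Junb* at -0.081 and *Ier3* at -0.040 without YAP2-5SA-∆C replicate 3, *Jund* at 0.076 without YAP2-5SA-∆C replicate 1, and *Egr1* at 0.060 without YAP2-5SA-∆C replicate 2. Omitting each library gave a log2 fold change of -0.078 to 0.032 for *Jun*, -0.081 to 0.175 for *Junb*, -0.204 to 0.076 for *Jund*, -0.276 to 0.060 for *Egr1* and -0.040 to 0.386 for *Ier3*. In the JUN family the differences in share without YAP2-5SA-∆C replicate 3 were 0.0753 percentage points for *Jun*, -0.107 for *Junb* and 0.0316 for *Jund*. Leaving out each library moved the difference in share from -0.923 to 0.0753 for *Jun*, from -0.107 to 5.44 for *Junb* and from -5.24 to 0.0316 for *Jund*.

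The replicate numbers are shared between genotypes but did not pair the libraries, since the correlation of same-numbered libraries ranged from -0.33 to -0.05 and 0 of 6 correlated best with their own number. With the replicate number as a replicate block, 0 of the 10 genes, 0 genes of each list and 0 of all genes were called, and 2949 had an unadjusted p under 0.05. The log2 fold change of *Fosb* with the replicate block was 1.99 (FDR = 0.153). At the depth of these libraries *Fosb*, *Fosl1* and *Atf3* rest on few counts in wild type skin, and the absence of a call for the other genes does not show equal levels.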

Other observations

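Of the AP-1 targets of skin that did not pass the filter on low values, *Mmp10*, a stromelysin gene, had 3, 3 and 1 counts in wild type replicates 1 to 3 and 36, 12 and 13 counts in YAP2-5SA-∆C replicates 1 to 3. *Mmp1b* had 1, 0 and 0 counts in wild type and 14, 11 and 14 counts in YAP2-5SA-∆C skin, and *Il6*, an inflammatory cytokine gene, had 3, 2 and 0 counts and 6, 10 and 22 counts. *Mmp1a* had 0, 0 and 1 counts and 2, 1 and 1 counts, *Sprr2a1* 4, 8 and 3 counts and 17, 28 and 18 counts, and *Sprr3* 0 counts in each wild type library and 4, 2 and 1 counts in the YAP2-5SA-∆C libraries. These counts were not divided by library size. The immediate-early gene *Egr4* had at most 1 count in each library.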
